A study of Mus musculus with 62 samples.

Results

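Distal H3K27ac regions shared by all 4 muscles were obtained by merging the H3K27ac peak lists of extensor digitorum longus (EDL), quadriceps (Quad), soleus (Sol) and diaphragm (Dia). A merged region was a member when it was under 10 kb wide, overlapped a peak of each muscle, held no peak annotated at a promoter, and had every peak over 2000 bp from the nearest annotated transcription start site (TSS). Of 51588 merged regions, 19318 lay in all 4 muscles and 10058 were members, which was 19.5% of all merged regions and 52.1% of those in 4 muscles. The other regions in 4 muscles were 1359 that were 10 kb or wider, 5175 that held a promoter peak and 2726 that came within 2000 bp of a TSS. Being called in every muscle, and lying away from annotated starts, was therefore the rule itself and not a result.

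Histone modifications were mapped by chromatin immunoprecipitation and sequencing (ChIP-seq) in muscles of male C57BL/6J mice, bought at 7 to 8 weeks of age. There were 2 H3K27ac and 2 H3K4me2 libraries for each muscle. A Quad library came from 1 animal, whereas EDL, Sol and Dia libraries were each pooled from 3 animals, so muscle and pooling cannot be told apart in comparisons with Quad. The other Quad groups also had 2 libraries a mark. Mice that ran on wheels by choice for 4 weeks from 8 weeks of age were taken 4 to 6 h after the last bout (Ex). Sedentary mice were caged without wheels over the same time (Sed). Transgenic mice carried Pgc1a under the muscle creatine kinase promoter, which is active in muscle fibers (mTg), and were set beside their male wild-type littermates (Wt). The age of mTg and Wt mice was not stated. The open chromatin used here was 1 ATAC-seq peak list of Quad of sedentary wild-type mice from 3 libraries, and the lists of the Mediator subunit MED1 and the factor NFAT were from 1 library a muscle (MED1 in all 4 muscles, NFAT in Quad and Sol). The 16 H3K27ac libraries held 11.7 to 24.2 M tags, the 16 H3K4me2 libraries 6.41 to 22.7 M, the shallowest being from mTg, and the inputs 7.72 to 22.9 M. H3K27ac libraries of 1 group kept the ranking of members with rank correlations of 0.88 to 0.92 in the 4 muscles, a description across members that share libraries and width. Over the members with a peak there, these correlations were 0.83 in Sed, 0.80 in Ex, 0.89 in Wt and 0.94 in mTg.

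Acetylation of histone H3 at lysine 27 marks promoters and enhancers that are in use, and away from promoters it is the most common sign of an active enhancer. H3K4me2 is found at promoters and enhancers alike, ATAC peaks show where the DNA itself is accessible to proteins, and Mediator is the complex that carries signals from bound factors to RNA polymerase. EDL and Quad of the mouse hold mainly fast, glycolytic fibers, Sol holds many slow, oxidative fibers, and Dia is a mixed muscle that works without rest, so a region acetylated in all of them can be shared by fiber types or belong to the other cells that all muscles contain. These were bulk tissues, in which fewer cells of a type and less acetylation per cell cannot be told apart.

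The 7 windows of 200 bp below show what such regions contained. Each is centred on an ATAC peak inside a member, written 5′ to 3′ on the plus strand of mm10 (GRCm38 sequence from RefSeq). Capitals mark words searched on both strands. The E-box, which MYOD can bind, was CAGCTG, and the TEAD word was CATTCC. The AP-1 word was TGACTCA and the nuclear receptor half-site AGGTCA. The MEF3 word, an element of muscle gene promoters, was TCAGGTT, and the SP/KLF word was GGGCGG. Words for MEF2, SRF, ERR (which contains the half-site), RUNX, ETS and GATA were searched by name and are not in these windows. The first 4 windows belong to members among the highest in H3K27ac with an ATAC peak and MED1 in at least 2 muscles, and the last 3, chosen after their values were seen, to members of glucose and glycogen genes that differed between Sol and Quad.
Mafk, chr5:139796992-139797191, with a TEAD word at bases 76 to 81 and an AP-1 word at bases 106 to 112: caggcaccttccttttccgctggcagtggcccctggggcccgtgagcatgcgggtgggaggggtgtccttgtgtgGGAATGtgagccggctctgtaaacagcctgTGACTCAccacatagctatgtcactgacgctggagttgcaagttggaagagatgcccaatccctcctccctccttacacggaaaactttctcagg
Mirlet7a-1, chr13:48546554-48546753, with a TEAD word at bases 8 to 13 and SP/KLF words at bases 108 to 113 and 139 to 144: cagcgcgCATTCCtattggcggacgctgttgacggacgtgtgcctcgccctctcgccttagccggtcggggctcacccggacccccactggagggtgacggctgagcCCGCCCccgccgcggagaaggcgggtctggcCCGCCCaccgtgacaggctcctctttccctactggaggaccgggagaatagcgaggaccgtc
Mast2, chr4:116371777-116371976, with an E-box at bases 90 to 95: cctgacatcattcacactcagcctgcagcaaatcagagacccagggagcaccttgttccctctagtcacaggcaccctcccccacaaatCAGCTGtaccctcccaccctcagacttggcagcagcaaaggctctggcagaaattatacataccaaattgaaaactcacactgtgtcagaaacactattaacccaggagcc
Slc47a1, chr11:61407908-61408107, with a half-site at bases 76 to 81 and a TEAD word at bases 191 to 196: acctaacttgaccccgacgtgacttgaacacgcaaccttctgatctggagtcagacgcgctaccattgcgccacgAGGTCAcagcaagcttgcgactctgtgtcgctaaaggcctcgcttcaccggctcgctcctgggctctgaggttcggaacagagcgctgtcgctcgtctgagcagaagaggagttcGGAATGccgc
Ldha, chr7:46827539-46827738, with an E-box at bases 106 to 111 and a MEF3 word at bases 185 to 191: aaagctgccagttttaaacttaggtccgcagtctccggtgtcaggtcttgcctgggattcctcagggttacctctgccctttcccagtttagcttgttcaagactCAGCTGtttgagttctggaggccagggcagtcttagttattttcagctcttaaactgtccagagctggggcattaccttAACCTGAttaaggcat
Hk2, chr6:82807094-82807293, with an E-box at bases 44 to 49: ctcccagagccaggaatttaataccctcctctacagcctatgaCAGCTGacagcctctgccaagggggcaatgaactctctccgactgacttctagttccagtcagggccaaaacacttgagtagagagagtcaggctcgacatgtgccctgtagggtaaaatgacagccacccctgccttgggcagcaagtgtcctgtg
Phkb, chr8:85860719-85860918, with half-sites at bases 52 to 57 and 124 to 129: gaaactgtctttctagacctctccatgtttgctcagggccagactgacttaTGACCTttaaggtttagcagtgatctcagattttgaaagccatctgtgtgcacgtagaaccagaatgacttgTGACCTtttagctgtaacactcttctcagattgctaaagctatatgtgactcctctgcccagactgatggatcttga
A word is only a match of letters, and no binding was measured at it.

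Members were 520 to 9978 bp wide with a median of 3513.5 bp and covered 40.5 Mb in total. Their median distance to the nearest TSS was 28945 bp, and 80.9% were over 10000 bp away. By the annotation in the files, 5027 members lay in introns and 4645 (46.2%) between genes. In 7880 members (78.3%) each muscle contributed exactly 1 peak. Another member lay within 10 kb of 3754 members (37.3%), which was not compared with other regions. They were nearest to 5309 genes, of which 336 had 5 or more members and 20 had 10 or more. At the limits of the rule, the 3 members closest to a TSS were those of Tle2 and Acaca at 2007 bp and Dab2 at 2014 bp, and the nearest regions left out were those of Btbd3 at 2000 bp, Ndufs7 at 1978 bp and Pi16 at 1972 bp. The widest members were those of Meox1 (9978 bp), Zc3hc1 (9977 bp) and 9430078K24Rik (9975 bp), beside excluded regions of Atp6v1a and Rbm20 (10001 bp each) and Rcc2 (10004 bp).

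The genes with the most members were 1700016G22Rik and 9430078K24Rik, with 14 each. Bcor, a transcriptional corepressor on the X chromosome, Lpp, Rora and Trib1 had 13 each, Tcf4 had 12, and Arhgap26, Nfib and Pik3r1 had 11 each. The 13 members of Rora, a nuclear receptor, were all intronic and spread over 610 kb, with levels from -1.41 to 0.93. Levels here are log2 tags per kb of called width, with each library centred on its median over the 19318 regions in 4 muscles, so 0 is the typical shared region and 1 unit is 2-fold. The 14 members of 1700016G22Rik were all intergenic and 13 of them held an ATAC peak, but 1 had H3K4me2 in all 4 muscles. Among the muscle genes chosen for naming, Mef2c, a partner of the myogenic factors, had 8 members, Tead1 had 7, Ppargc1a 5, Foxo1 3, Igf1r 2, and Acta1 and Des 1 each, while Ckm and Myod1 had none.

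The word distal held for most members when checked against transcript starts that the peak annotation does not use. Of 10058 members, 900 (8.95%, 95% Wilson interval 8.41 to 9.52) held an annotated start of a protein-coding transcript (336 members), of a long non-coding transcript (581) or a transfer RNA (tRNA) gene (32). The share was 99% in promoter regions of all 4 muscles and 1.61% in distal regions of 1 muscle. Mafk, the member with the highest level of those with MED1 in 2 muscles, held an annotated start of Mafk itself, and the member named for Ripply3 held a start of Hlcs. Members with a start had a median level of -0.12 against -0.48 without one, and held MED1 in 16.2% against 5.69%. Wilson intervals in this text cover counting error only, and regions are not replicates.

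Most members were open chromatin in Quad. An ATAC peak overlapped 8002 members (79.6%, interval 78.8 to 80.3), compared with 48.0% of distal regions in 2 or 3 muscles, 17.9% of those in 1 muscle and 95% of promoter regions in all 4 muscles. Members were also wider than distal regions of 1 muscle (median 3513.5 against 911 bp), and within the central 500 bp the share with ATAC was 37.4% for members, 31.6% for distal regions of 2 or 3 muscles and 13.0% for those of 1 muscle, so most of the gap to the 2-or-3-muscle class was not seen at equal width. H3K4me2 peaks of all 4 muscles overlapped 39.5% of members, near the 35.5% of all merged regions, and 13.5% of members overlapped none, against 30.9% of all merged regions. In distal regions of 2 or 3 muscles H3K4me2 of all 4 muscles was at 14.2%. By muscle, H3K4me2 was called in 54.1% of members in Dia, 61.2% in Sol, 70.0% in Quad and 71.4% in EDL. An NFAT peak of Sol overlapped 5.06% of members and 3.09% of promoter regions, from a list of 39661 peaks, while the Quad list of 485 peaks reached 7 members. In the central 500 bp, NFAT of Sol stood at 1.04% of members and 0.971% of distal regions of 1 muscle. The plot of features by class shows members between promoters and single-muscle regions for every feature but NFAT, which over the whole region was most frequent in members.

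**Figure D1:**
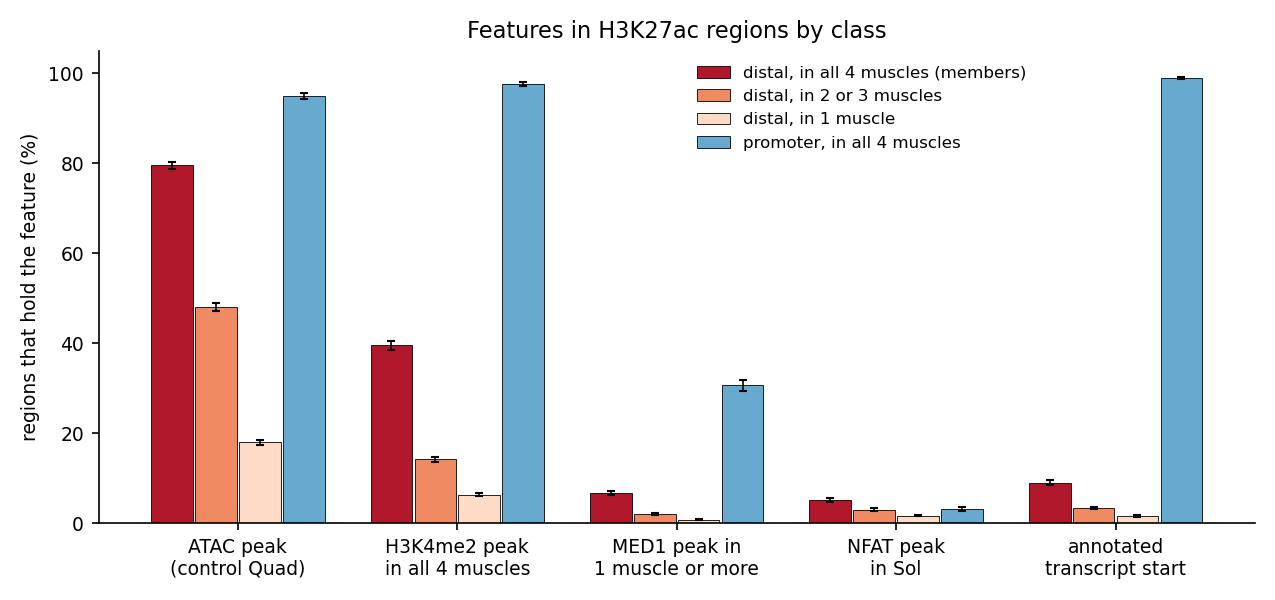
Share of H3K27ac regions, in percent, that held an ATAC peak of control Quad, H3K4me2 peaks of all 4 muscles, a MED1 peak, an NFAT peak of Sol or an annotated start, for 4 classes of region; bars are shares and whiskers 95% Wilson intervals for counting error. ATAC fell on 79.6% of members against 17.9% of distal regions of 1 muscle, and MED1 on 6.63%.

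These readouts ran with the H3K27ac level. When members were divided into deciles by mean level over the 8 muscle libraries, the share with an ATAC peak was 46.3% in the lowest decile and 98.0% in the highest. H3K4me2 in all 4 muscles went from 13.7% to 71.9%, and MED1 in at least 1 muscle from 1.69% to 24%. Median width also differed, from 2580 bp in the lowest decile to 4781.5 bp in the highest, and its part in these shares was not tested. Within the central 500 bp, where width cannot add overlap, ATAC still went from 23.2% to 45.3%. Ranking members by enrichment over input instead gave 53.8% and 97.0% for ATAC and 2.19% and 19.1% for MED1. Among members, those with no ATAC peak had a median level of -0.91 and those with one of -0.32.

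**Figure D2:**
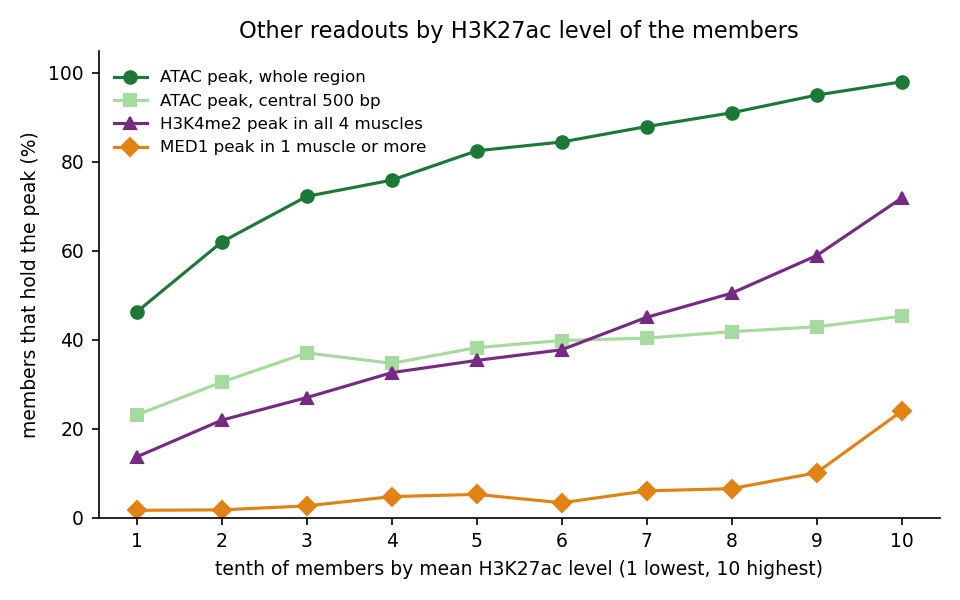
Share of members, in percent, that held an ATAC peak in the whole region or its central 500 bp, H3K4me2 peaks of all 4 muscles or a MED1 peak, for deciles of the members ranked by mean H3K27ac level. ATAC was at 46.3% in the lowest decile and 98.0% in the highest, and MED1 stood at 1.69% in the lowest and 24% in the highest.

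MED1 was uncommon in members. A MED1 peak of at least 1 muscle overlapped 667 members (6.63%), of at least 2 muscles 97, and of all 4 muscles 25. Over all merged regions, promoters included, MED1 of at least 1 muscle was at 7.91% and of at least 2 muscles at 2.07%, so members lay below that background, while distal regions of 2 or 3 muscles were at 2.00% and of 1 muscle at 0.794%. By muscle the counts were 327 in Sol, 214 in Quad, 212 in Dia and 80 in EDL, and the lists themselves held 4070, 3593, 2145 and 834 peaks, each from 1 library, so the counts cannot be compared between muscles apart from list size. Promoter regions in all 4 muscles held MED1 in 30.6%. The median level was -0.48 in members with no MED1, 0.06 with MED1 in 1 muscle and 0.97 in the 25 members with MED1 in 4.

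Many of the members with MED1 in 4 muscles held a tRNA gene, a class of gene that RNA polymerase III transcribes. This was noticed after the values were seen. The 32 members with a tRNA gene held 50 of the 403 tRNA genes of RefSeq, and 28 of the 32 (87.5%) had MED1 in at least 2 muscles, against 69 of the 10026 other members (0.688%). Of the 25 members with MED1 in all 4 muscles, 17 held a tRNA gene. In promoter regions all 17 with a tRNA gene had MED1 in at least 2 muscles, and over all merged regions 78 of 85 did (91.8%), against 1.93% of those without. Members with a tRNA gene also had a higher input level (median 0.79) than members with no start (-0.26) and promoter regions (0.50), and the part of this background in the MED1 calls was not tested. Examples were members named for Hfe2 and Trim55, with 4 tRNA genes each, and Shf, with 3, all with MED1 in 4 muscles, whereas those of Wnt10a, Enah, Sesn2 and Mir326 held 1 tRNA gene each and no MED1 peak.

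The Slc47a1 window shown above is such a case. Bases 9 to 80 of it are the tRNA gene n-TWcca5 on the minus strand (chr11:61407916-61407987), so the half-site at bases 76 to 81 is partly tRNA sequence. The H3K27ac level of this member was 1.46 and 1.72 in the Quad libraries, 1.48 and 1.66 in EDL, 1.63 and 1.93 in Dia, and 1.60 and 1.73 in Sol. The 8 libraries overlapped between muscles, and MED1 was called in all 4.

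The highest members with ATAC and MED1 in at least 2 muscles were those of Mafk (mean level 1.85), 1810026B05Rik (1.84), Ripply3 (1.76), 0610009L18Rik (1.71), Mirlet7a-1 (1.67), Slc47a1, Mast2 (1.60), Rps6ka1 (1.60), Cdc34 (1.57) and Mreg (1.56). Of these 10, 8 held an annotated start, and the members of 1810026B05Rik and Mast2 held none. The intronic Mast2 member, whose gene encodes a microtubule-associated kinase, had levels of 1.70 and 1.66 in Quad, 1.81 and 1.65 in EDL, 1.62 and 1.55 in Dia, and 1.54 and 1.30 in Sol. The 1810026B05Rik member was higher in Sol (2.41 and 2.36) and Dia (1.98 and 2.00) than in Quad (1.43 and 1.32) and EDL (1.63 and 1.61). The flattest of the top decile by level was the member of Phf2, a histone demethylase, with all 8 libraries between 0.85 and 0.99 and muscle means within 0.05 of each other. Its input level was 1.01, above the level of its own H3K27ac against the typical shared region, and the part of that background was not tested. Those of Zfp52, Gm9895, Nlrp4f and Clec16a had ranges of muscle means of 0.06, 0.08, 0.09 and 0.10. Members near structural muscle genes were high and even, with means of 1.12 for Acta1, skeletal α-actin, and 1.24 for Des, desmin, and ranges over muscles of 0.21 and 0.27.

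Levels within members differed between muscles more than levels of promoters. The median range of the 4 muscle means was 0.62 in members and 0.45 in promoter regions, and 84.2% of members against 95.6% of promoters stayed under 1. Among members the largest difference between replicates had a median of 0.42, and in 72.1% of them the range was larger than it. Across members, the rank correlation of group means was 0.88 for EDL and Quad and 0.79 for Sol and Dia, and 0.68 for Sol and Quad, as a description over 10058 regions. The files of each muscle had been normalized separately, so no test was made between them. Over 2-fold apart here means that group means differed by more than 2-fold and that both libraries of one group lay above both of the other.

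By this count, 738 members (7.34%) were apart between Sol and Quad, beside 5.73% of all merged regions present in both muscles and 1.60% of promoter regions. For Dia and Quad it was 6.87% of members beside 6.04% of all shared regions, for EDL and Sol 5.06% beside 3.93%, and for EDL and Dia 4.95% beside 4.35%. Sol and Dia, at 2.87% beside 2.35%, and EDL and Quad, at 1.24% beside 1.26%, differed least. Member shares thus lay near those of all shared regions and above those of promoters in each of these 6 pairs. Among distal regions of 2 or 3 muscles the share for Sol and Quad was 9.35%, above members, but by the 3 measures described next it was 0.786%, below them. These pairs share muscles, so they are not separate pieces of evidence. The same count between Quad groups without wheels or transgene gave 3.01% of members for Quad and Wt, beside 3.21% of all shared regions. It gave 1.32% beside 2.40% for Quad and Sed, and 1.22% beside 1.92% for Sed and Wt. Sol and Dia, and EDL and Quad, thus differed no more than Quad and Wt did.

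The size of the share over 2-fold apart depends on how level is measured. For Sol and Quad it was 26.2% of members when level was not divided by width and 2.59% by enrichment over input. Level per kb, level of the whole region and enrichment over input agreed on 146 members for Sol and Quad (1.45%, 60 higher and 86 lower in Sol), beside 0.914% of all shared regions and 0.135% of promoters. The corresponding shares were 1.19% beside 0.885% for Dia and Quad, 1.29% beside 0.819% for EDL and Sol, and 1.00% beside 0.713% for EDL and Dia. For Sol and Dia the 3 measures agreed on 21 members (0.209%, beside 0.172% of all shared regions) and for EDL and Quad on 9 (0.0895%, beside 0.0778%). The plot of shares over 2-fold apart gives both counts.

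**Figure D3:**
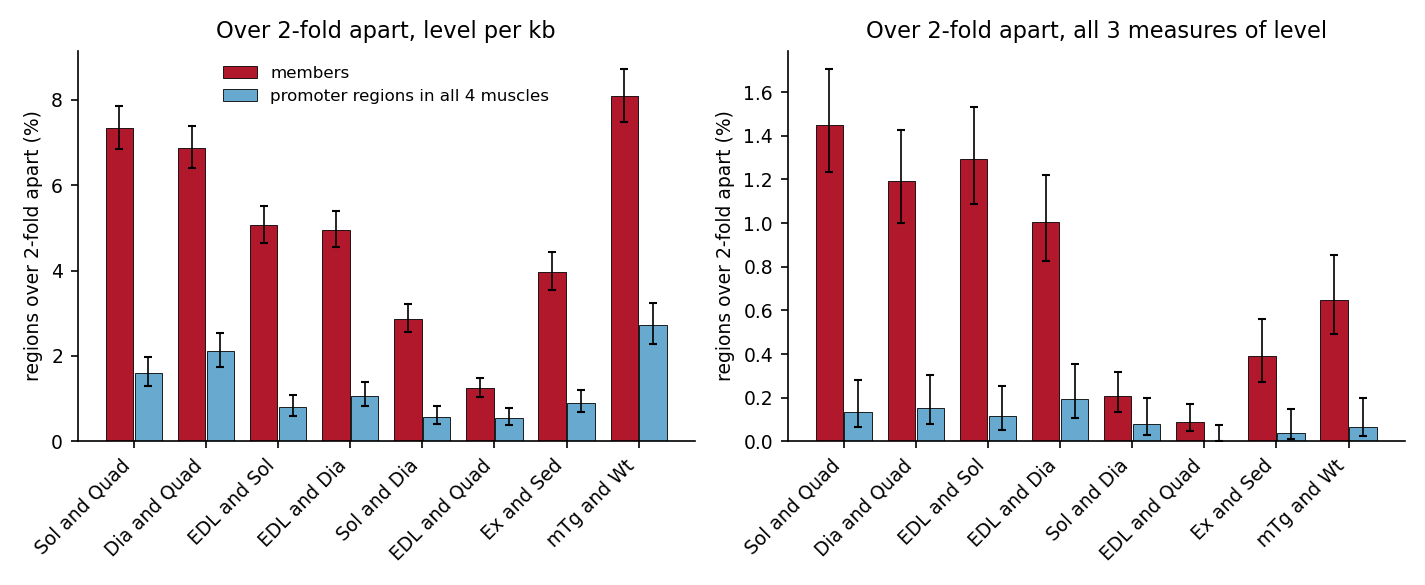
Share of regions, in percent, over 2-fold apart in H3K27ac between 2 groups, by level per kb (left) and by all 3 measures of level (right), for members and for promoter regions of all 4 muscles; whiskers are 95% Wilson intervals for counting error and the vertical scales differ. Members stood at 7.34% and promoters at 1.60% for Sol and Quad on the left.

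Of the members apart between Sol and Quad, 358 were higher in Sol (3.56%, beside 3.12% of all shared regions) and 380 were lower (3.78%, beside 2.61%). The largest difference of the lower set lay upstream of Lama5, a laminin chain of basement membranes, at chr2:180239608-180242429. Its level was 1.24 and 1.17 in Quad and 0.49 and 0.76 in EDL, against -1.31 and -1.51 in Sol and -1.14 and -0.99 in Dia. The next was in an intron of Golph3 (chr15:12332262-12336020), at 0.62 and 0.58 in Quad and -2.17 and -1.74 in Sol, but over input it differed by -0.41, which is not past 2-fold. The third was an intronic member of Phkb, the β subunit of phosphorylase kinase, which starts glycogen breakdown (chr8:85857057-85864942). It stood at 1.35 and 1.28 in Quad and 1.02 and 1.28 in EDL, against -1.09 and -1.16 in Sol and -1.20 and -0.93 in Dia, a gap between Sol and Quad of -2.44, or -1.14 over input. In the members of Lama5 and Phkb the 2 fast muscles and the other 2 did not overlap. The members near Mir190a and Adamts5, a matrix protease, were lower in Sol by similar amounts, with differences of -2.35 and -2.32. All 5 of these members also held a region that lost acetylation in exercised Quad, described further on. The share was 37.4% of the 380 members lower in Sol and 7.74% of all members. Such regions were selected for a higher level in sedentary Quad than in exercised Quad, and the part of that selection here was not tested.

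Among the members with the largest differences in the other direction were those near Snx19, Csrp2bp, Homer2 and Sntb2. The member of Homer2, a synaptic and muscle scaffold protein, was at 0.63 and 0.57 in Sol and -0.12 and -0.15 in Dia, against -1.48 and -1.73 in Quad and -1.17 and -1.37 in EDL. Its H3K4me2 level moved the same way, with -0.51 and -0.59 in Sol against -2.78 and -2.7 in Quad. Over input, Homer2 (1.45) stayed past 2-fold, whereas Snx19 (0.91), Csrp2bp (0.81) and Sntb2 (0.12) did not.

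Between EDL and Dia the members of Aldh8a1, Tom1l2 and Nsun2 were highest in EDL relative to Dia, by 2.78, 2.76 and 2.62, and those of Hoxc4, Efna5 and Tmem216 lowest, by -2.61, -2.19 and -1.88. The member near Hoxc4, a HOX gene of body position, was at 1.01 and 1.00 in Dia, against -1.52 and -1.68 in EDL, -0.55 and -0.58 in Quad and -1.35 and -1.35 in Sol. Both Dia libraries thus lay above the 6 others. H3K4me2 there was 0.71 and 0.71 in Dia and -0.89 and -0.78 in EDL. Over input the gap was -1.53 at Hoxc4, 1.31 at Tom1l2 and 1.16 at Nsun2, and it was not past 2-fold at Aldh8a1 (0.67), Efna5 (-0.38) or Tmem216 (-0.80).

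Members nearest to genes of muscle metabolism were read as lists, with the count over all members beside them. Of 27 members of glycolysis and glycogen genes, 6 were lower in Sol than in Quad (22.2%, against 3.78% of all members), near Hk2, Ldha, Phka1, Ppp1r3c and, with 2 members, Phkb, and 1 was higher, near Slc2a4, the insulin-responsive glucose transporter. The median level of the list was 0.15, against -0.45 for all members. Of 45 members of fatty acid and mitochondrial genes, 5 were higher in Sol (11.1%, against 3.56%), near Acaca, Cd36, Esrrg, Lpl and Ppargc1a, and 1 was lower, near Ppargc1b.

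The member upstream of Ldha, the muscle subunit of lactate dehydrogenase (chr7:46824821-46831821), had a level of 0.83 and 1.03 in Quad and 0.50 and 0.75 in EDL, against -0.83 and -0.92 in Sol. Dia was split, at -0.59 and 0.41. H3K4me2 differed by -0.90 between Sol and Quad there. The member upstream of Hk2, hexokinase, which takes the first step of glucose use (chr6:82804553-82808920), was at 0.87 and 0.77 in Quad, 0.86 and 0.85 in EDL, 0.61 and 0.28 in Dia and -0.34 and -0.88 in Sol. Sol alone stood apart from the other 3 muscles at Hk2. Both windows shown above carry an E-box. The member near Phka1, the muscle α subunit of phosphorylase kinase, was at 0.17 and -0.05 in Quad and -1.10 and -1.02 in Sol. The Hk2, Ldha and Phka1 members and the Phkb member described above were lower in Sol by all 3 measures of level.

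On the oxidative side, the member downstream of Lpl, the lipase that releases fatty acids from blood lipoproteins (chr8:68959945-68966042), was at 0.04 and -0.41 in Sol and 0.17 and -0.33 in Dia, against -2.06 and -2.42 in Quad and -0.85 and -1.41 in EDL. It was higher in Sol by all 3 measures. The members near Esrrg, a nuclear receptor of oxidative metabolism, and Ppargc1a, the coactivator PGC1α, were higher in Sol by 1.49 and 1.07 per kb, but by 0.71 and 0.78 over input. That of Cd36, a fatty acid transporter, was higher by 1.24 per kb but by 0.39 over input.

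**Figure D4:**
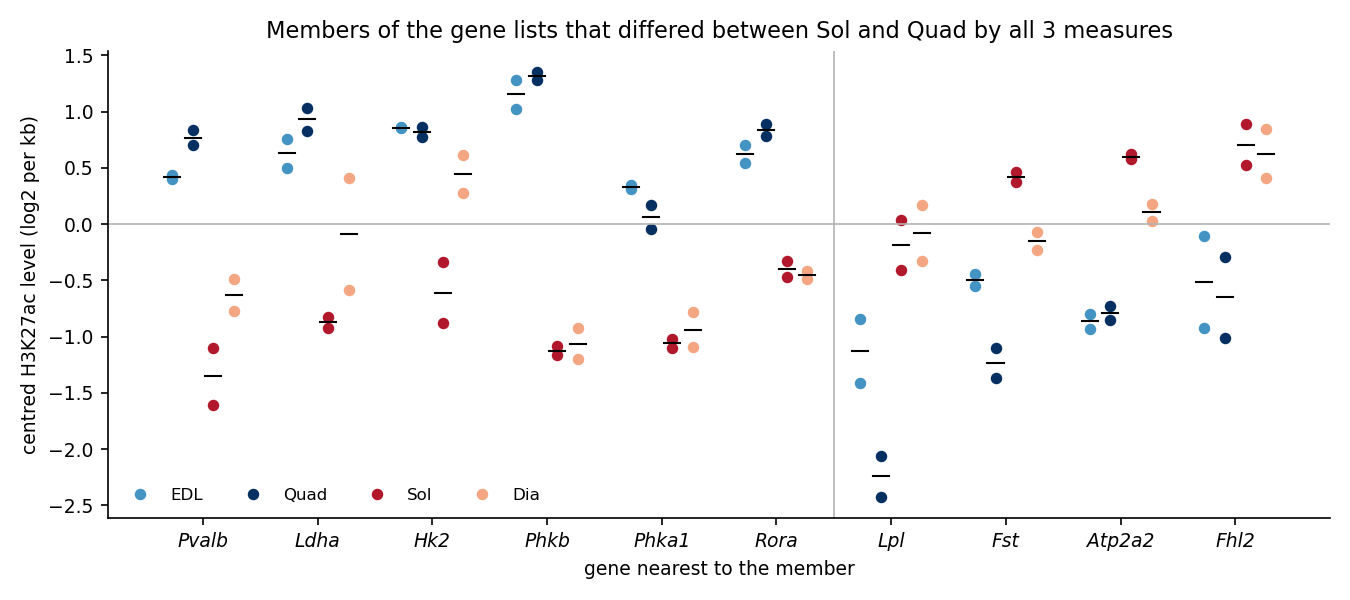
Centred H3K27ac level, in log2 tags per kb, of 10 members that all 3 measures put over 2-fold apart between Sol and Quad; points are the 2 libraries of each muscle and black bars their mean. The 6 on the left (Pvalb, Ldha, Hk2, Phkb, Phka1 and Rora) were lower in Sol than in Quad and the 4 on the right (Lpl, Fst, Atp2a2 and Fhl2) higher.

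Fiber-type genes had 10 members for fast and 7 for slow isoforms. This was 0.588 and 0.467 members per gene, beside 0.633 over all genes with a peak. Of the fast members 1 was lower in Sol than in Quad (10%, against 3.78% of all members) and none higher. Of the slow members 2 were higher in Sol (28.6%, against 3.56%) and 1 lower (14.3%). The member of Pvalb, parvalbumin, a calcium buffer of fast fibers (chr15:78191042-78200644), was at 0.70 and 0.83 in Quad and 0.44 and 0.40 in EDL, against -1.10 and -1.61 in Sol and -0.77 and -0.49 in Dia. The member of Atp2a2, the slow-fiber calcium pump (chr5:122522875-122530946), showed the opposite, with 0.62 and 0.57 in Sol and 0.18 and 0.03 in Dia against -0.73 and -0.85 in Quad and -0.80 and -0.93 in EDL. Both had non-overlapping fast and slower muscles, and both were called by all 3 measures. A member near Fhl2 was likewise higher in Sol (0.89 and 0.52) than in Quad (-0.29 and -1.01), whereas one assigned to Myoz2, a Z-disc protein of slow fibers, was lower in Sol (-0.02 and -0.06 against 1.05 and 0.94).

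The calcium handling list had 27 members, none higher in Sol (against 3.56% of all members). Lower in Sol were 2 (7.41%, against 3.78%), near Srl, sarcalumenin, and Trdn, triadin. The Trdn member was at 0.00 and -0.19 in Quad, -1.17 and -1.31 in Sol and -2.02 and -2.06 in Dia. Of 53 members of sarcomere and Z-disc genes, 2 were higher in Sol, Neb among them, and 2 lower (Myom2 and Myoz2), which is close to the share of all members in each direction. Sarcomere members had a median level of 0.13, and 26.4% held MED1, against 6.63% of all members.

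Factors of muscle identity had 131 members, of which 11 were lower in Sol (8.40%, against 3.78%) and 4 higher (3.05%, against 3.56%). Lower members belonged to Mkl2, a coactivator of SRF, with 4, to Sox6, a repressor of slow-fiber genes, with 3, and to Eya1, Foxk1, Rora and Vgll2 with 1 each. The 4 members of Mkl2 were lower by -1.10 to -1.58 per kb, and none of them passed 2-fold over input. The Rora member (chr9:69049648-69056413) was at 0.78 and 0.89 in Quad and 0.70 and 0.54 in EDL, against -0.33 and -0.47 in Sol and -0.41 and -0.49 in Dia, and was the 1 member of this list called by all 3 measures. Of the Sox6 members, the one with the largest difference was at 0.42 and 0.13 in Quad and -1.04 and -1.78 in Sol, a gap of -1.69 that was -0.74 over input. The members higher in Sol included those of Nfix, Tead1 and Vgll2, so Vgll2 had 1 member in each direction.

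Among growth and insulin signalling genes (92 members), 4 were lower in Sol (4.35%, against 3.78% of all members). They lay near Map1lc3a, Prkaa2 and, with 2 members, Nedd4, a ubiquitin ligase. Higher in Sol were 2 (2.17%, against 3.56%), near Fst, the follistatin gene, and Pik3r1. The Fst member was at 0.46 and 0.38 in Sol, -0.23 and -0.07 in Dia, -0.44 and -0.55 in EDL and -1.10 and -1.37 in Quad, so that all 4 muscles were separate. Genes that mark other cells of the muscle had members of lower level. The median was -0.74 for 56 endothelial members, -0.68 for 33 of fibroblasts, -0.86 for 19 of smooth muscle and pericytes, -1.0 for 18 of macrophages and -0.82 for 6 of satellite cells. Of the members in these 5 lists, 1 was over 2-fold apart between Sol and Quad, whereas 7.34% of all members were. It was an intronic member of Erg, an endothelial factor, lower in Sol by -1.06 per kb and -0.85 over input. The other lists of such markers were smaller and nearer to the level of all members. Of 9 Schwann cell members (median -0.51), 1 was higher in Sol, near Mbp (11.1%, against 3.56% of all members). The 2 adipocyte members had a median of -0.58, and none was apart.

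The other readouts moved with these differences. Of the members higher in Sol and with H3K4me2 in both muscles, 87.5% of 120 also had the higher H3K4me2 level in Sol, against 7 of 167 (4.19%) of those lower in Sol and 46.0% of all members with H3K4me2 in both. For members called by all 3 measures the counts were 18 of 20 and 1 of 28. A MED1 peak was called in Sol at 14 and in Quad at 3 of the members higher in Sol, and in Sol at 6 and in Quad at 14 of those lower, from lists of 4070 and 3593 peaks. The ATAC list used here was of Quad, and openness in Sol was not analysed here.

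Voluntary running and the Pgc1a transgene were compared in Quad, where 7400 members had a peak in both Sed and Ex and 7564 in both Wt and mTg. Between Ex and Sed 294 members (3.97%) were over 2-fold apart, beside 3.62% of all shared regions. Of these, 92 were higher in Ex (1.24%, beside 1.7%) and 202 lower (2.73%, beside 1.92%). By all 3 measures 29 were apart (0.392%, beside 0.34%), 6 higher and 23 lower. Between mTg and Wt 611 members (8.08%) were apart, beside 8.36%, with 137 higher in mTg (1.81%, beside 2.14%) and 474 lower (6.27%, beside 6.23%), and 49 by all 3 measures (0.648%, beside 0.698%). The mTg shares were near the background. The median mTg minus Wt difference was -0.17 in members and -0.13 in all shared regions, and the part of this shift in the direction was not tested. Without the first Ex library the share between Ex and Sed was 9.16%, without the second Sed library 9.09% and without the second Ex library 2.95%. With 1 library left in a group the rule of no overlap is looser. The part of the library left out and that of the looser rule cannot be told apart. Members had a median of -0.66 and -0.55 in the mTg libraries and of -0.44 and -0.48 in Wt.

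The files also list exercise modified regions (EMRs) and PGC1α modified regions (PMRs), chosen by the study for differing in H3K27ac, so a test on them is no independent evidence. Members held 39 of 382 hyperacetylated EMRs (10.2%), 785 of 2280 hypoacetylated EMRs (34.4%), 407 of 1828 hyperacetylated PMRs (22.3%) and 150 of 844 hypoacetylated PMRs. In limma's two-sided moderated test with Benjamini-Hochberg adjustment over each list, all of these regions passed an adjusted p of 0.05, as did 100% of each whole list. The mean change in log2 tags within members was 0.69, -0.80, 0.88 and -0.77 in that order. Members thus held more hyperacetylated than hypoacetylated PMRs (407 and 150). By level per kb, in contrast, more members were lower than higher in mTg (474 and 137). The PMR levels were normalized over both groups together and the levels per kb in each group separately, and the part of this was not tested. For hypoacetylated EMRs no member region passed without the second Ex library and 504 passed without the first, and for hyperacetylated EMRs none passed without either Sed library, whereas PMR counts stayed at 148 or more of 150 and 405 or more of 407. With each library centred on its median over the list, 0 of 39, 0 of 785, 65 of 407 and 12 of 150 passed, since each list holds regions of 1 direction (1 and 17 of the EMR regions were at an unadjusted p under 0.05).

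Examples with the smallest adjusted p were, for hypoacetylated EMRs, a region in an intron of Clic5, which fell from 8.95 and 9.10 in Sed to 7.75 and 7.58 in Ex (difference -1.36, SE 0.27, limma adjusted p = 6.16e-05), and others near Cep120, Hectd2, Mir6416 and Snora33. For hyperacetylated EMRs the region near Itga11, an integrin of fibroblasts, rose from 5.43 and 5.43 to 6.23 and 6.15 (0.76, SE 0.17, limma adjusted p = 6.96e-05), and others were near Eps8l1, F2rl1, Galnt15 and BC022687. For hyperacetylated PMRs the region near Tmem65, a mitochondrial membrane protein, rose from 7.83 and 7.83 in Wt to 9.59 and 9.48 in mTg (1.70, SE 0.14, limma adjusted p = 4.96e-19), with Wfs1, Disc1, 2310069B03Rik and Rasl11b next. For hypoacetylated PMRs the region in Phkb fell from 9.98 and 10.09 to 8.58 and 8.72 (-1.39, SE 0.16, limma adjusted p = 6.41e-16), and others were near Mir152, Mir582, Zcchc6 and Gm19299. Treated and control libraries did not overlap in any of these, nor in any other region of each whole list, chosen by the study for differing.

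Members with a hypoacetylated EMR tended to be lower in Sol than in Quad. The 778 members with a hypoacetylated EMR had a median Sol minus Quad difference of -0.46, with Sol higher in 20.8%, while over all members the median was 0.08 and Sol was higher in 56.7%. Read the other way, 142 of the 380 members lower in Sol than in Quad held a hypoacetylated EMR (37.4%), against 12 of the 358 higher in Sol (3.35%) and 7.74% of all members. Among members called by all 3 measures it was 41 of 86 against 3 of 60. Sed, Ex, Sol and Quad are separate libraries in the labels, but EMRs of this direction were selected for a higher level in Sed, which is also Quad, than in Ex, and the part of that selection in the relation was not tested. The same set had a higher level (median -0.02), more ATAC (91.6%) and more MED1 (11.3%) than all members, and the part of these in the relation was not tested. Of 339 members higher in EDL than in Sol, 151 held a hypoacetylated EMR (44.5%), a comparison that shares the Sol libraries.

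Members with a hyperacetylated PMR lay on the other side. Their median Sol minus Quad difference was 0.24 over 402 members, with Sol higher in 70.9%, and they were 12.3% of the members higher in Sol but 0.789% of those lower, beside 4.0% of all members. The 148 members with a hypoacetylated PMR had a median of -0.24. The 39 members with a hyperacetylated EMR were weak regions, with a median level of -1.25, an ATAC peak in 53.8% and no MED1 peak, and their median Sol minus Quad difference was 0.08. The plot of cumulative shares shows the hypoacetylated EMR curve left and the hyperacetylated PMR curve right of all members.

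**Figure D5:**
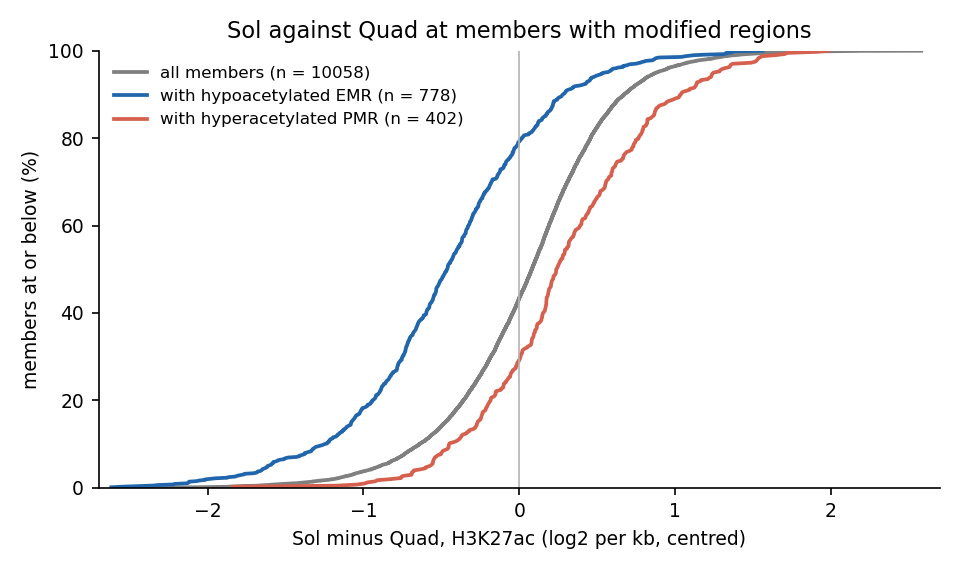
Cumulative share of members, in percent, by the Sol minus Quad difference in H3K27ac (log2 per kb, centred), for all members, members with a hypoacetylated EMR and members with a hyperacetylated PMR. The curves cross 0 at different heights, since Sol was higher in 20.8% of hypoacetylated EMR members, 56.7% of all and 70.9% of hyperacetylated PMR members.

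Hypoacetylated EMRs were frequent in some gene lists. They were held by 9 of 27 calcium handling members (33.3%, against 7.74% of all), near Jph1 and Jph2, the junctophilins that join the surface membrane to the calcium store, Kcnj11, Scn4a, the muscle sodium channel, Srl and Trdn. They were held by 24 of 131 members of muscle factors (18.3%), 4 of them among the 7 members of Tead1, and by 7 of 27 of glycolysis and glycogen, 7 of 53 of the sarcomere and 13 of 92 of growth and insulin signalling. The Tead1 member with the highest level of these was at 0.37 and 0.71 in Sed and 0.10 and -0.30 in Ex. None of the 56 endothelial members and 2 of the 33 fibroblast members held one. The Pvalb member was at 0.34 and -0.30 in Sed and -0.62 and -1.02 in Ex, and the Phkb member at 0.81 and 0.63 in Sed and -0.14 and -0.42 in Ex. Of the fatty acid and mitochondrial members, 7 of 45 (15.6%) held a hypoacetylated EMR, near genes that included Esrrg, Ppargc1a and Tfam. Hyperacetylated PMRs were held by 5 of these 45 (11.1%, against 4.0% of all members), near Acsl1, Cd36, Fabp3, Ppara and Ppargc1a. Glycolysis and glycogen members held them at the same share, 3 of 27 (11.1%), near Gbe1 and Ppp1r3c. In H3K4me2, the 68 members with a hyperacetylated PMR and the mark in both groups had a median difference of -0.39 between the libraries labelled mTg and Wt, and all 3155 such members of -0.35. The 302 members with a hypoacetylated EMR had a median H3K4me2 difference of -0.16 between Ex and Sed, against -0.04 over all 4193 such members.

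Sequence at the ATAC peaks of members differed from that at promoters. Of 9678 ATAC peaks inside members, 25.9% held the E-box CAGCTG within 200 bp, against 11.8% in promoter regions and 21.4% of all ATAC peaks. The MEF2 word stood in 3.94%, against 0.704% in promoters, 1.78% in distal regions of 1 muscle, 0.985% in ATAC peaks outside the merged regions and 2.08% of all ATAC peaks. AP-1 was at 11.2% against 2.89% in promoters, and the nuclear receptor half-site at 20.7% against 8.66%. These 3 words were about as frequent in other distal regions: in those of 2 or 3 muscles and of 1 muscle the E-box was at 25.5% and 25.6%, AP-1 at 11.3% and 12.3% and the half-site at 20.9% and 19.9%, while MEF2 was at 2.82% in the former. The SP/KLF word GGGCGG went the other way, at 10.8% in members and 59.4% in promoters, as did the ETS word at 2.52% and 18.5%. Promoter windows had a median GC content of 64% and member windows of 51.5%, and its part in these shares was not tested.

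Within members, the MEF3 word TCAGGTT, which the Ldha window carries, stood in 35 of 452 windows of members higher in Quad than in Sol (7.74%, interval 5.62 to 10.6), in 6 of 205 windows of members higher in Sol (2.93%, interval 1.35 to 6.24) and in 3.64% of all member windows. It was at 7.70% in windows of members with a hypoacetylated EMR. That set shares windows with the members higher in Quad, since 142 of those 380 members held a hypoacetylated EMR. The AP-1 word had the opposite order, with 6.64% in members higher in Quad and 16.6% in members higher in Sol. These windows are ATAC peaks of Quad, neighbouring windows of 1 member share sequence, and no test was made between the sets.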

How the data were processed

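Peak lists of H3K27ac, H3K4me2, MED1, NFAT and ATAC were analysed on mm10. For ChIP-seq the authors aligned reads with Bowtie and kept uniquely mapped reads, and for ATAC-seq they used Bowtie2. They called peaks with HOMER, over both replicates of a group for the histone marks and from 1 library for MED1 and NFAT, and deposited log2 tag levels per library, a peak score, adjusted p-values and coverage signal. The authors' own fold changes and p-values of group comparisons were not used as results, and their EMR and PMR lists, made with HOMER and DESeq2, hold regions selected for differing. Exercise and transgene ATAC peaks and footprint lists were not used here because their coordinates passed the end of mm10 chromosomes. The members and the gene lists were chosen with earlier results of these data known.

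Level was the sum of linear tags of the peaks in a region per kb of called width, in log2, centred per library on its median over the 19318 regions in 4 muscles. Overlap meant at least 1 bp. Lists were intersected with bedtools 2.31.1 under Python 3.11.15 (pandas 2.3.3, SciPy 1.17.1, pysam 0.24.0). Lists normalized separately were compared by values only. EMR and PMR regions were tested with limma 3.58.1 in R 4.3.3 (trend, two-sided, Benjamini-Hochberg over each list, threshold 0.05), in a procedure tested on simulated data. Labels do not say whether the 2 libraries of a Quad group shared a litter or day, so p-values measure the spread between these libraries. Starts were from GENCODE M21 basic transcripts and RefSeq tRNA genes. Named members were those highest in level with ATAC and MED1, those with the largest difference between Sol and Quad or EDL and Dia, the flattest of the top decile, those near chosen muscle genes, and the smallest limma p of each list. Other members named were over 2-fold apart or of fixed gene lists, and those in the plot of list members and the tRNA members were chosen after their values were seen. The alternatives tried were other measures of level, overlap rules, peak thresholds, reciprocal overlap, centring, leaving out each library and the replicate block. The depth of each library limits its level, and intervals cover counting error only. A few members that these rules name are not reported here.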

Additional observations from a re-analysis of the deposited data

How the results depend on the processing

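Taking H3K27ac peaks with an adjusted p under 0.001 left 6065 members. H3K4me2 in all 4 muscles stood at 29.9% with 4-fold peaks, 28.1% in the central 500 bp and 36.7% without annotated starts, and ATAC at 37.4% in the central 500 bp and 49.5% with its better-scoring peaks. MED1 in at least 1 muscle was 1.68% with equal numbers of top-scoring peaks, 2.07% centrally and 5.69% without starts, in at least 2 muscles 0.616%, 0.298% and 0.426%, and NFAT in Sol 0.179%. Undivided by width, the shares over 2-fold apart were 26.2% (Sol and Quad), 26.7% (Dia and Quad), 23.3% (EDL and Sol), 22.6% (EDL and Dia), 17.0% (Sol and Dia), 11.6% (EDL and Quad), 34.9% (Ex and Sed), 30.1% (mTg and Wt), 14.1% (Quad and Sed), 21.7% (Quad and Wt) and 16.8% (Sed and Wt). With 50% reciprocal overlap (4660 members) the shares of the first 3 pairs were 4.18%, 4.46% and 2.98%, of Sol and Dia 1.8% and of EDL and Quad 0.536%. Over input they were 2.59%, 2.48%, 2.97% and 2.79% for the first 4 pairs, 0.994% for Sol and Dia, 1.38% for Ex and Sed, 8.48% for Quad and Wt and 9.17% for Sed and Wt, and by all 3 measures 1.45%, 1.19%, 1.29%, 1.00%, 0.209%, 0.0895%, 0.392% and 0.648%. Members exceeded promoters in 10 of 11 pairs per kb, the exception being Quad and Sed (1.32% against 1.65%), and in 11 of 11 by whole region and over input. With 50% reciprocal overlap they did so in 5 of 6 pairs, the exception being EDL and Quad (0.536% against 0.541%). The causes were not tested. Enrichment over input, the agreement of all 3 measures, leaving out annotated starts, ranking by enrichment and the crossed numbers were chosen after seeing the data.

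Leaving out 1 library gave 7.90% to 8.44% for Sol and Quad, 6.96% to 9.24% for Dia and Quad, 5.43% to 6.74% for EDL and Sol, 5.34% to 6.78% for EDL and Dia, 3.43% to 4.48% for Sol and Dia (highest without Dia replicate 1), 1.15% to 2.91% for EDL and Quad (highest without Quad replicate 1), 2.95% to 9.16% for Ex and Sed, 7.42% to 11.1% for mTg and Wt, 1.32% to 4.13% for Quad and Sed, 2.88% to 5.53% for Quad and Wt and 1.40% to 2.85% for Sed and Wt. The rule of no overlap is looser with 1 library left in a group, so these shares do not measure the effect of the library alone.

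In limma, centring the libraries left 0 and 0 of the 39 and 785 EMR regions called (1 and 17 at an unadjusted p under 0.05) and 65 and 12 of the 407 and 150 PMR regions, and F2rl1 reversed to -0.0532. Leaving out 1 library gave 0 to 39, 0 to 785, 405 to 407 and 148 to 150 calls. Hyperacetylated EMRs fell to 0 without either Sed library (3 and 7 at an unadjusted p under 0.05), and hypoacetylated EMRs to 0 without Ex replicate 2 (331), 504 without Ex replicate 1 and 661 without Sed replicate 1. Samples shared only a replicate number, with deviations correlated at 0.14, 0.11, -0.04 and -0.24 in the 4 lists, and the replicate block left 39, 785, 407 and 150 calls. Crossing the numbers for hypoacetylated PMRs also left all 844 regions called. The planned threshold on the authors' adjusted p for EMRs and PMRs was not run, since those columns were not used.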
